A study of Mus musculus with 6 samples.

Results

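Integrins and laminins were followed here: the genes of all integrin α subunits, all integrin β subunits and all laminin chains, 38 of the 55401 genes in the deposited table. They were picked by gene symbol, with earlier results of these data known, and comprise 18 α subunits, 9 β subunits and 11 laminin chains. The cells were mesenchymal stromal cells, cultured from the femoral bone marrow of C57/B6J mice and profiled by RNA sequencing. The 3 knockout libraries came from NLRP3-/- cells (labelled NLRP3 knockout) kept in 3 µg/mL of lipopolysaccharide (LPS) for 24 h, and the 3 WT libraries came from wild-type cells given the same exposure. All 6 libraries were exposed to LPS, so that the comparison concerned the genotypes under LPS and not the response to LPS. The labels do not say how the Nlrp3 allele was made or whether a genotype's 3 libraries stem from different mice or cultures. The p-values therefore speak only of the spread among these libraries, and that spread may be technical.

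Integrins are αβ heterodimers that bind cells to the matrix or to other cells, and the α subunit largely sets the ligand. Laminins are αβγ heterotrimers of basement membranes, in which the α chain carries the main binding sites for integrins. In bone marrow, the β2 integrins are carried by leukocytes and the β1 and αv integrins by stromal cells, while laminins with the α4 or α5 chain are found around marrow vessels. The members were therefore read as 8 leukocyte integrin genes (Itgb2 and its partners Itgal, Itgam, Itgax and Itgad, together with Itgb2l, Itgae and Itgb7), 18 stromal integrin genes, the platelet gene Itga2b and 11 laminin genes. Several of the genes counted as stromal, such as Itgb1, Itga4 and Itga6, are also expressed by blood cells.

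The estimated counts summed to between 53.2 and 66.3 M per library, or roughly 13.3 to 16.6 M fragments, and library correlations were 0.973 to 0.985 within and 0.943 to 0.952 across genotypes. Nlrp3, which encodes the sensor of an inflammasome, had 0 estimated counts in each knockout library and 730, 502 and 444 in WT replicates 1, 2 and 3, so that each library carried the level its label names. No member lay within 10 Mb of Nlrp3 on chromosome 11. Of 14 stromal cell markers, 13 passed the expression filter described below, and 9 were lower and 3 higher in knockout libraries (limma). Col1a1 stood at 1300 FPKM in knockout and 1730 FPKM in WT libraries, and Thy1 was lower in knockout libraries (11.8 ± 1.2 FPKM) than in WT libraries (134 ± 6.2; SD, n = 3 each; limma adjusted p = 3.75e-06). The 3 higher ones were Nt5e (2.35 FPKM in knockout and 0.183 FPKM in WT libraries), Twist1 (19.3 and 11.6 FPKM) and Cxcl12 (59.7 and 46.9 FPKM). Nt5e passed the filter only through the knockout libraries, where it is high. Macrophage markers were present in both genotypes. All 20 of 24 listed that passed the expression filter were higher in knockout libraries, although Aif1 passed only through those libraries (1.60 FPKM in knockout and 0.85 FPKM in WT libraries). The 24 levels summed to 1721 to 1967 FPKM in knockout and 735 to 840 FPKM in WT libraries. Most of that sum was Lyz2 (1150 FPKM in knockout and 463 FPKM in WT libraries). The part of macrophages in the results below was not tested, and in such bulk libraries fewer cells of a type and less RNA per cell cannot be told apart.

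Levels are FPKM, fragments scaled by transcript length and library size, so that levels of different genes can be set side by side per length. Fold changes are differences of mean log2(FPKM + 1), knockout minus WT, which understates the change of low genes. The limma test covered the whole table after a filter that kept genes reaching 1 FPKM in 3 or more of the 6 libraries, and adjusted p-values are Benjamini-Hochberg values over all 12136 tested genes, with 0.05 as the threshold. Of the 38 members, 22 passed this filter and 16 did not. Lama1 passed only through the knockout libraries, where it is high, so that the counts of called members are a description. Among the 22 tested, 8 were higher and 4 were lower in knockout libraries, or 54.5%, against 19.6% of all tested genes called in either direction. In one direction each, 10.4% of all tested genes were called higher and 9.2% lower. The median log2 fold change was 0.00 over the 22 members and 0.005 over all tested genes.

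The sequences upstream of 4 members introduce the loci that the results turn on. Itgam and Itgax encode the αM and αX partners of β2 and are neighbours on chromosome 7, and the first was expressed and higher in knockout libraries while the second was near 0 in every library. Lama5, the laminin α5 chain, rose and Itgb5, the β5 partner of αv, fell. Each line gives the 250 bases before the transcription start in RefSeq (build GRCm38.p6), 5′ to 3′ on the strand of the gene. The windows are chr7:128062390-128062639, plus strand (Itgam), chr7:128129300-128129549, plus strand (Itgax), chr2:180225860-180226109, minus strand (Lama5) and chr16:33829415-33829664, plus strand (Itgb5). Capitals mark GAGGAA or its reverse complement TTCCTC in Itgam and Itgax, the core bound by PU.1, the myeloid transcription factor encoded by Spi1. Capitals mark GGGCGG or its reverse complement CCGCCC, the GC box of Sp factors, in Lama5 and Itgb5.
Itgam: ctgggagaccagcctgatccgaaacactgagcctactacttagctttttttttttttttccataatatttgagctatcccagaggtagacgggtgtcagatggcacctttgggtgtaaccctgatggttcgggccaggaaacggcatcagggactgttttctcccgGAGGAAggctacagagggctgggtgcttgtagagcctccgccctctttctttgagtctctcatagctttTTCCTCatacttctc
Itgax: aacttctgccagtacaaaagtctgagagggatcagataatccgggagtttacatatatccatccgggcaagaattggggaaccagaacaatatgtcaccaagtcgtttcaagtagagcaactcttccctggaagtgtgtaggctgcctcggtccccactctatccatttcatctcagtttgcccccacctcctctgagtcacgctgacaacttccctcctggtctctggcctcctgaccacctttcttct
Lama5: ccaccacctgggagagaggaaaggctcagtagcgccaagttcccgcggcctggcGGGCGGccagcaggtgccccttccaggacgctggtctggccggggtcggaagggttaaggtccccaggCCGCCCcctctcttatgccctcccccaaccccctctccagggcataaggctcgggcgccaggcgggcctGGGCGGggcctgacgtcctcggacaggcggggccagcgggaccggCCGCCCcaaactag
Itgb5: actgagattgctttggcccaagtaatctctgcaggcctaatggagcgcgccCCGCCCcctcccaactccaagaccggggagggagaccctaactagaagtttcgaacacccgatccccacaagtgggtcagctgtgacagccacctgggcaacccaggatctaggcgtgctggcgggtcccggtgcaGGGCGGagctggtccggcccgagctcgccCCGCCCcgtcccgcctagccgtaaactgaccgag

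The Itgam window held 2 PU.1 cores, starting 84 and 15 bases before the transcription start, and the Itgax window held none, which says only that these letters are not in this window. Over 27025 genes with such a window, 23.1% held a PU.1 core. Among the 24 members with a window, 12 held one, including 2 of 4 leukocyte integrins, 4 of 14 stromal integrins and 5 of 5 laminins. The 2 leukocyte integrins were Itgam and Itgb2l, the latter at most 0.01 FPKM. The windows of Itga9, Lamb3, Lama2 and Itgb8 lay 105002, 94295, 2816 and 526 bases from the deposited gene starts. Only 5 of the 12 called members had a window, so that these counts do not describe the called genes. A part of the motif in any change was not tested. The GC box occurred 4 times before Lama5, which rose, and 3 times before Itgb5, which fell. It occurred in 8 of the 24 members (33.3%) and in 32.9% of all genes. Spi1 itself stood at 9.15 ± 1.61 FPKM in knockout and 3.21 ± 0.15 FPKM in WT libraries (log2 fold change 1.26, limma adjusted p = 0.000757).

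In GRCm38, Lama1 lies at chr17:67697259-67822647 (plus strand), Lama4 at chr10:38965515-39110188 (plus), Lama5 at chr2:180176373-180225859 (minus) and Lamc1 at chr1:153218922-153332786 (minus). The laminin α chains had the largest log2 fold changes of the tested members. Lama1 and Lama5 rose and Lama4 fell, whereas Lama2 did not pass the test and Lama3 was near 0. Lama5 had 6.63, 9.30 and 7.32 FPKM in knockout replicates 1, 2 and 3, against 1.06, 1.26 and 1.15 FPKM in WT replicates 1, 2 and 3. Every knockout value lay far above every WT value, at 6.70 times the WT mean, and the log2 fold change was 2.01 ± 0.12 (SE; limma adjusted p = 0.000111). Lama1, the α1 chain known from embryonic basement membranes, had 5.78, 7.15 and 5.75 FPKM in knockout libraries, against 0.72, 0.81 and 0.70 FPKM in WT libraries. Its knockout libraries all lay above its WT libraries, with 8.38 times the mean level and a log2 fold change of 2.05 ± 0.10 (limma adjusted p = 4.07e-05). Since it entered this test only through the libraries where it is high, the fit without a filter on low values is given too, with an adjusted p of 0.000284. Lama4, the α4 chain of vessel and mesenchymal basement membranes, had 3.44, 3.43 and 3.41 FPKM in knockout libraries, against 11.66, 12.22 and 10.73 FPKM in WT libraries. The groups were far apart and the log2 fold change was -1.50 ± 0.07 (limma adjusted p = 3.91e-05). The pseudocount lowers the fold changes of such low genes, and edgeR on the counts gave 3.04 for Lama1 and 2.72 for Lama5 on the log2 scale. Lama2, the α2 chain of muscle and nerve, stood at 1.40 ± 0.27 FPKM in knockout and 1.52 ± 0.07 FPKM in WT libraries (SD, n = 3 each), with a log2 fold change of -0.07 and a 95% interval of -0.31 to 0.17.

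The sum of the 5 α chain mRNAs changed less than its composition. It was 18.8 ± 2.4 FPKM in knockout and 15.0 ± 0.83 FPKM in WT libraries. Lama4 made up 20.0%, 15.9% and 19.2% of that sum in knockout replicates 1, 2 and 3, and 78.0%, 77.0% and 75.5% in WT replicates 1, 2 and 3. Lama1 and Lama5 together made up 74.0% ± 1.9 of the sum in knockout libraries and 12.7% ± 0.64 in WT libraries. The highest of the α chains was thus Lama5 in knockout libraries, followed by Lama1, and Lama4 in WT libraries, and this order held in each library. In knockout libraries Lama5 (40.9% ± 2.2) and Lama1 (33.0% ± 0.65) lay closer to each other than either lay to Lama4 (18.4% ± 2.2).

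**Figure D1:**
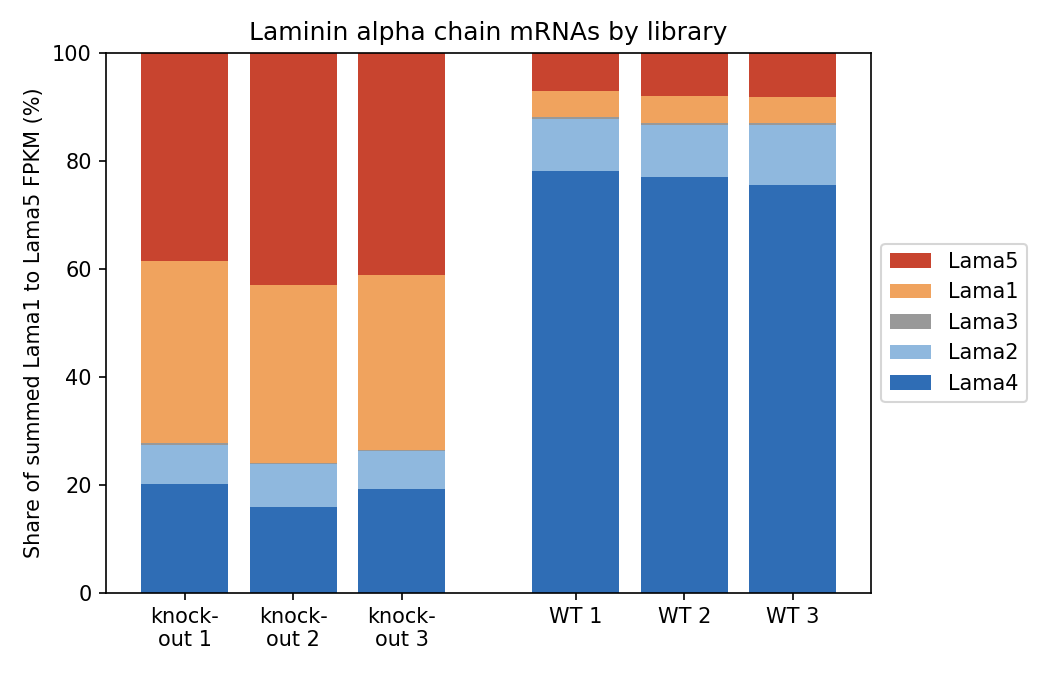
Share of each laminin α chain mRNA in the summed FPKM of Lama1 to Lama5 (percent, vertical axis), 1 bar per library with the knockout libraries on the left and the WT libraries on the right. Lama4 takes 15.9% to 20.0% of a knockout bar and 75.5% to 78.0% of a WT bar.

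Among the other laminin chains, Lamc1 fell and both widely expressed β chains did not pass the test. Lamc1 encodes γ1, the γ chain that most laminins share, and had 28.63, 26.78 and 27.28 FPKM in knockout libraries, against 55.05, 60.13 and 56.70 FPKM in WT libraries. It stood at 0.481 times the WT mean without overlap (log2 fold change -1.03 ± 0.06, limma adjusted p = 0.000118). Lamb1, the β1 chain, had 33.96, 38.62 and 37.32 FPKM in knockout libraries, against 40.10, 43.06 and 40.84 FPKM in WT libraries. Lamb2, the β2 chain of mature basement membranes, had 19.20, 21.03 and 20.17 FPKM in knockout libraries, against 21.23, 23.51 and 22.19 FPKM in WT libraries. Both β chains were lower in each knockout library than in any WT library, yet neither passed, with log2 fold changes of -0.17 (95% interval -0.34 to 0.00) and -0.14 (-0.31 to 0.02) and limma adjusted p-values of 0.164 and 0.222. Groups without overlap were found for 15 of the 22 tested members (68.2%) and for 36.7% of all tested genes. The ratio of the β chains was close in all libraries, Lamb1 taking 64.3% ± 0.62 of their FPKM in knockout and 64.9% ± 0.36 in WT libraries.

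Of the epithelial laminin chains, Lama3 was at most 0.06 FPKM in any library. Lamb3, its β3 partner, had 0.23, 0.19 and 0.12 FPKM in knockout libraries, against 0.05, 0.02 and 0.01 FPKM in WT libraries. It stayed below the limma filter. Its estimated counts were 106, 80 and 53 in knockout and 23, 12 and 4 in WT libraries, and edgeR's quasi-likelihood test on them gave a log2 fold change of 2.56 and an adjusted p of 0.0238. That test covered 34 members, of which 10 were higher and 6 lower, against 8.48% of all genes it tested called higher and 8.12% called lower. Lamc3, the γ3 chain, was at most 0.05 FPKM in any library. The 7 endothelial markers summed to 0.07 to 0.23 FPKM in knockout and 0.51 to 0.69 FPKM in WT libraries, most of the WT sum being Tek (0.467 FPKM), and none of them passed the filter. The 7 epithelial markers summed to 5.63 to 9.31 FPKM in knockout and 12.25 to 17.74 FPKM in WT libraries, with Krt5 at 0 in all. Most of the epithelial sum was Krt19 (4.97 FPKM in knockout and 12.3 FPKM in WT libraries). The part of either cell type in the laminin results was not tested.

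The laminin-binding integrin α subunits Itga3 and Itga7 rose and Itga6 did not pass the test. Itga3, the α3 subunit that binds laminins with the α5 chain, had 11.45, 12.12 and 12.83 FPKM in knockout libraries, against 4.63, 5.57 and 5.82 FPKM in WT libraries. The knockout values were all above the highest WT value, and the log2 fold change was 1.05 ± 0.09 (limma adjusted p = 0.000494). Itga7, the laminin receptor of muscle cells, had 3.15, 3.27 and 3.57 FPKM in knockout libraries, against 0.98, 1.13 and 1.10 FPKM in WT libraries. Again no values overlapped, at 3.11 times the WT mean (log2 fold change 1.06 ± 0.08, limma adjusted p = 0.000253). Itga6, the other laminin-binding α subunit, had 1.88, 2.21 and 1.75 FPKM in knockout libraries, against 1.77, 2.18 and 2.43 FPKM in WT libraries, and its groups overlapped (log2 fold change -0.08, 95% interval -0.35 to 0.18). Summed, the 3 genes reached 17.4 ± 0.85 FPKM in knockout and 8.54 ± 1.03 FPKM in WT libraries. Itga6 took 11.2% ± 1.5 of that sum in knockout and 24.8% ± 1.0 in WT libraries. Its β4 partner of epithelial cells, Itgb4, stood between 0.07 and 0.19 FPKM in all libraries.

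Collagen receptors were dominated by Itga11, the α11 subunit of fibroblasts. It had 67.51, 74.24 and 64.51 FPKM in knockout libraries, against 53.33, 57.90 and 51.34 FPKM in WT libraries. All knockout libraries were above all WT libraries, but the difference was small (1.27 times the WT mean, log2 fold change 0.34 ± 0.08, limma adjusted p = 0.0306). The call was lost under quantile normalization (adjusted p = 0.0668) and without WT replicate 1 or 3 or knockout replicate 1 or 2 (0.118, 0.115, 0.0928 and 0.0744). Itga11 made up 98.5% ± 0.33 of the FPKM of the 4 collagen-binding α subunits in knockout and 98.5% ± 0.11 in WT libraries. The others, Itga1, Itga2 and Itga10, stayed between 0.10 and 0.59 FPKM.

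Among the RGD-binding integrins, which recognise fibronectin and vitronectin, neither of the α subunits tested by limma, Itga5 and Itgav, passed the test, and Itgb5 and Itgb3, which pair with αv, fell. Itga5, which pairs with β1 as the main fibronectin receptor, had 104.5, 104.8 and 103.0 FPKM in knockout libraries, against 103.2, 105.0 and 100.2 FPKM in WT libraries. These overlapping values gave the narrowest interval of the tested integrins, -0.13 to 0.16 around a log2 fold change of 0.02. Itgav, the αv subunit, varied within both groups, with 9.18, 11.48 and 16.44 FPKM in knockout libraries, against 18.07, 12.86 and 11.91 FPKM in WT libraries. Its log2 fold change of -0.21 had an interval of -0.76 to 0.34, so that a change of the size seen for Itgb5 and Itgb3 was not detectable. Itgb5, the β5 partner of αv, had 118.0, 114.0 and 131.0 FPKM in knockout libraries, against 174.3, 171.7 and 187.0 FPKM in WT libraries. It stood at 0.681 times the WT mean, and no values overlapped (log2 fold change -0.55 ± 0.08, limma adjusted p = 0.00415). Itgb3, the β3 subunit of platelets, osteoclasts and stromal cells, had 1.95, 1.97 and 2.02 FPKM in knockout libraries, against 3.35, 3.65 and 3.52 FPKM in WT libraries. It was lower in each knockout library (log2 fold change -0.60 ± 0.07, limma adjusted p = 0.00162). Itgb5 took 98.0% ± 0.22 of the FPKM of Itgb3, Itgb5, Itgb6 and Itgb8 in knockout and 97.9% ± 0.14 in WT libraries. The 7 osteoclast markers, whose part in the Itgb3 result was not tested, summed to 34.75 to 42.78 FPKM in knockout and 36.76 to 38.12 FPKM in WT libraries, with Calcr at 0 in all. Most of that sum was Ctsk (38.1 FPKM in knockout and 34.7 FPKM in WT libraries), and Acp5, the other one tested, was lower, at 1.68 FPKM in knockout and 2.53 FPKM in WT libraries (log2 fold change -0.40, limma adjusted p = 0.0478).

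Of the remaining genes of this group, Itgb8, Itgb6 and Itga8 stayed below the filter. Itgb8, which with αv activates latent TGF-β, had 0.53, 0.62 and 0.31 FPKM in knockout libraries, against 0.29, 0.33 and 0.30 FPKM in WT libraries. Itgb6, the epithelial partner, had 14, 8 and 31 estimated counts in knockout libraries and 0 in each WT library, where the floor of 3 fragments over a group equals 12 estimated counts. DESeq2 called it higher (adjusted p = 0.00149), and it was not tested by limma or edgeR. Itga8, the α8 receptor of nephronectin, had 0.17, 0.11 and 0.07 FPKM in knockout libraries, against 0.34, 0.38 and 0.56 FPKM in WT libraries. Its groups did not overlap, and edgeR, though not limma, tested it (log2 fold change -1.85, adjusted p = 0.0135). Npnt, which encodes nephronectin, stood at 11.1 FPKM in knockout and 6.58 FPKM in WT libraries (log2 fold change 0.67, limma adjusted p = 0.00437).

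Itgb1, the common partner of most stromal α subunits, was the most abundant member. It had 325.1, 329.4 and 284.0 FPKM in knockout libraries, against 279.6, 292.8 and 287.0 FPKM in WT libraries. The groups overlapped, and the log2 fold change of 0.12 had an interval of -0.09 to 0.33 (limma adjusted p = 0.395). The summed FPKM of all α subunits was 233 ± 9.3 in knockout and 195 ± 8.4 in WT libraries, below the level of Itgb1 alone in each library. Of the α4 and α9 pair, which bind VCAM-1 and tenascin, Itga9 had 1.82, 2.11 and 1.98 FPKM in knockout libraries, against 1.42, 1.53 and 1.23 FPKM in WT libraries. These values did not overlap, yet the log2 fold change of 0.31 ± 0.09 missed the threshold in limma (adjusted p = 0.0519) and passed in edgeR (adjusted p = 0.0406). Itga4 had 0.22, 0.35 and 0.13 FPKM in knockout libraries, against 0.12, 0.14 and 0.11 FPKM in WT libraries.

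**Figure D2:**
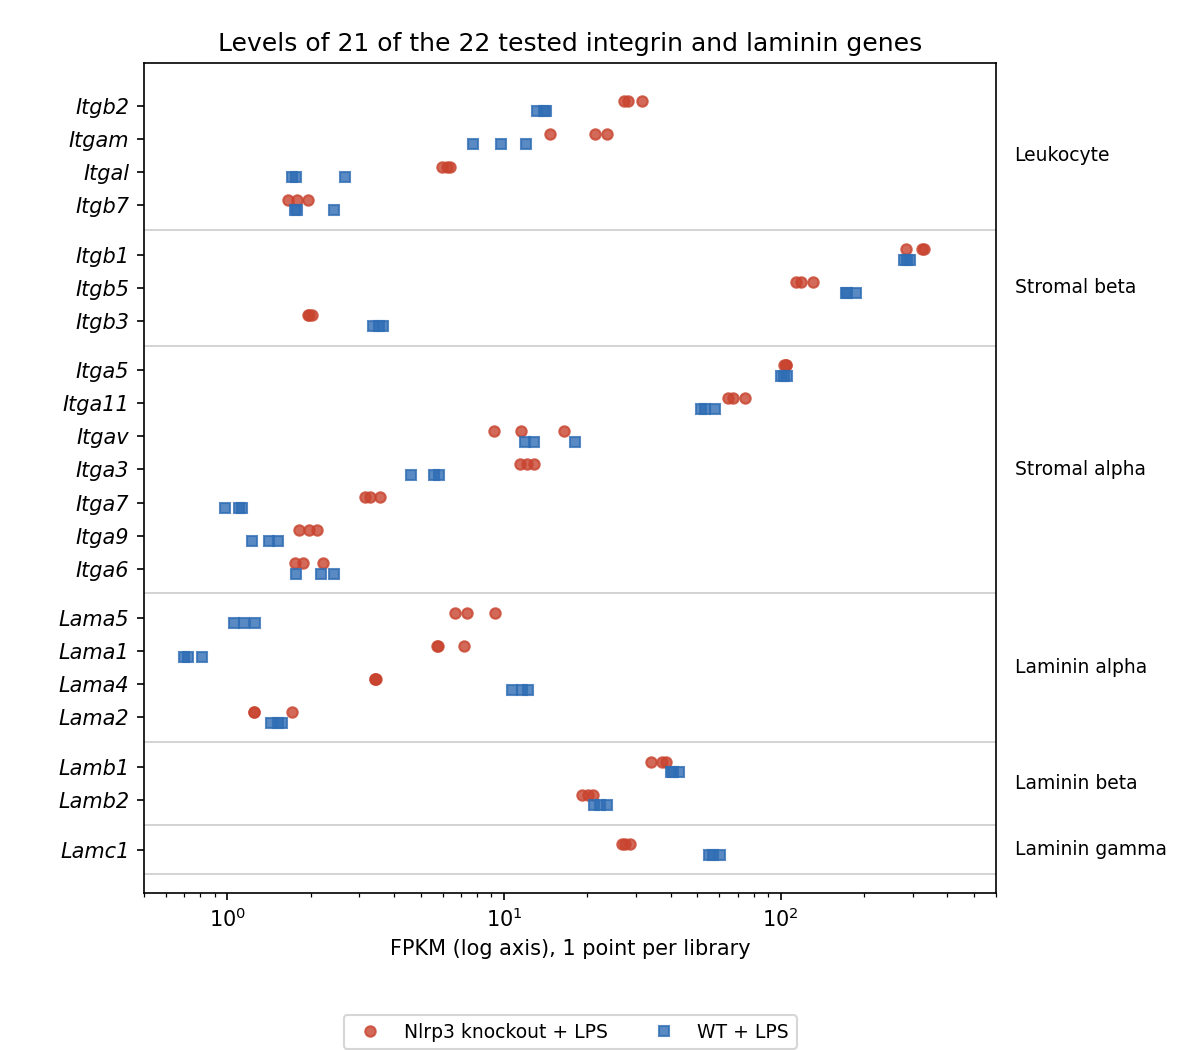
FPKM of 21 of the 22 tested members on a log axis, 1 point per library, with circles for the 3 knockout libraries above squares for the 3 WT libraries of each gene, grouped by role. Lama1, Lama5, Itgal, Itgb2, Itga3 and Itga7 sit to the right in knockout libraries, and Lama4, Lamc1, Itgb3 and Itgb5 sit to the left.

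Of the 4 leukocyte integrin genes that passed the filter, the β2 family genes Itgb2, Itgal and Itgam rose and Itgb7 did not pass the test, while the other 4 were near 0. Itgb2, the common β2 subunit, had 28.01, 27.15 and 31.45 FPKM in knockout libraries, against 14.13, 13.91 and 13.12 FPKM in WT libraries. The groups were clearly apart, at 2.10 times the WT mean (log2 fold change 1.02 ± 0.08, limma adjusted p = 0.000246). Itgal, the αL subunit of LFA-1, had 5.95, 6.37 and 6.21 FPKM in knockout libraries, against 2.67, 1.77 and 1.71 FPKM in WT libraries. Every knockout value lay far above every WT value, at 3.01 times the WT mean, and the log2 fold change was 1.25 ± 0.13 (limma adjusted p = 0.000914).

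Itgam, the αM subunit of the phagocyte receptor Mac-1, had 14.64, 21.25 and 23.50 FPKM in knockout libraries, against 9.78, 11.97 and 7.73 FPKM in WT libraries. The groups did not overlap, but knockout replicate 1 lay near WT replicate 2, and the log2 fold change was 0.93 ± 0.21 (limma adjusted p = 0.0227). The call was lost without WT replicate 1 or 3 or knockout replicate 2 or 3 (adjusted p = 0.0724, 0.0727, 0.0747 and 0.0523) and without a filter on low values (0.0509). In the GENCODE M21 annotation Itgam shares 3450 exon bases on the same strand with Gm49368, a protein-coding gene whose annotation carries a readthrough tag, so that reads of both cannot be separated with certainty. Gm49368 had 22.18, 31.49 and 26.63 FPKM in knockout libraries, against 10.97, 8.33 and 6.95 FPKM in WT libraries. The sum of both, chosen after these values were seen, was 46.6 ± 8.5 FPKM in knockout and 18.6 ± 3.4 FPKM in WT libraries (log2 fold change 1.28 ± 0.18, limma adjusted p = 0.00331), and with any library left out its adjusted p lay between 0.00478 and 0.0148.

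Itgal and Itgam together reached 89.9% ± 15 of the FPKM of Itgb2 in knockout and 86.3% ± 13 in WT libraries, without counting Gm49368, a difference smaller than the spread between libraries. Itgax, the αX subunit common on dendritic cells, stood between 0.05 and 0.11 FPKM in all libraries. Itgad, the αD subunit, had 0 estimated counts in each knockout library and 2, 0 and 0 in WT libraries, below the floor of 12 estimated counts over a group. Itgb2l was at most 0.01 FPKM and Itgae, the αE subunit of epithelial lymphocytes, at most 0.05 FPKM. Itgb7, which pairs with α4 and αE on lymphocytes, had 1.79, 1.96 and 1.66 FPKM in knockout libraries, against 1.75, 1.79 and 2.43 FPKM in WT libraries, and its groups overlapped (log2 fold change -0.09, 95% interval -0.36 to 0.18). Its α partners Itga4 and Itgae were both at most 0.35 FPKM in every library.

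Set beside each other, the 4 tested leukocyte integrins had a median log2 fold change of 0.98, the 10 tested stromal integrins 0.07 and the 8 tested laminins -0.11, against 0.005 over all tested genes. Of the leukocyte genes 3 rose and 0 fell, of the stromal integrins 3 rose and 2 fell, and of the laminins 2 rose and 2 fell (limma). These classes were not compared with a test. In the same libraries the 20 tested macrophage markers had a median log2 fold change of 1.15, within a range of 0.49 to 2.11, and the median ratio of their mean FPKM was 2.4, against 2.06 for the leukocyte integrins. Adgre1, which encodes F4/80, stood at 134 ± 2.8 FPKM in knockout and 44.0 ± 2.7 FPKM in WT libraries, and Ptprc, which encodes CD45, at 0.843 and 0.303 FPKM. Of 10 lymphoid markers, 8 had a value of 0 in all libraries and the sum was at most 0.21 FPKM. Of 10 granulocyte markers, Elane, Cxcr2 and Retnlg were at 0 in all libraries, and their sum was 12.16 to 17.06 FPKM in knockout and 11.04 to 11.7 FPKM in WT libraries. The 3 that were tested were all called (limma), with Csf3r (5.4 FPKM in knockout and 1.36 FPKM in WT libraries) and S100a8 (4.5 FPKM in knockout and 0.783 FPKM in WT libraries) higher and Camp (4.6 FPKM in knockout and 9.05 FPKM in WT libraries) lower. S100a8 passed the filter only through the knockout libraries, where it is high, so that its call is a description. The dendritic markers summed to at most 1.01 FPKM.

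Itga2b, the αIIb subunit of platelets and megakaryocytes, had 0.43, 0.48 and 0.63 FPKM in knockout libraries, against 0.87, 0.87 and 1.13 FPKM in WT libraries. It was lower in each knockout library and below the limma filter, while edgeR gave a log2 fold change of -0.90 and an adjusted p of 0.0299. Of the 7 other platelet and megakaryocyte markers, Gp9 was at 0 in all libraries, and Pf4 and Ppbp, chemokines also made by other myeloid cells, were higher in knockout libraries (124 and 31.5 FPKM) than in WT libraries (52.1 and 7.59 FPKM). Gp6, below the limma filter, had 0.10, 0.27 and 0.19 FPKM in knockout libraries, against 0.01, 0 and 0.01 FPKM in WT libraries. Of the 5 markers that edgeR tested, 3 were called higher and 0 lower.

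**Figure D3:**
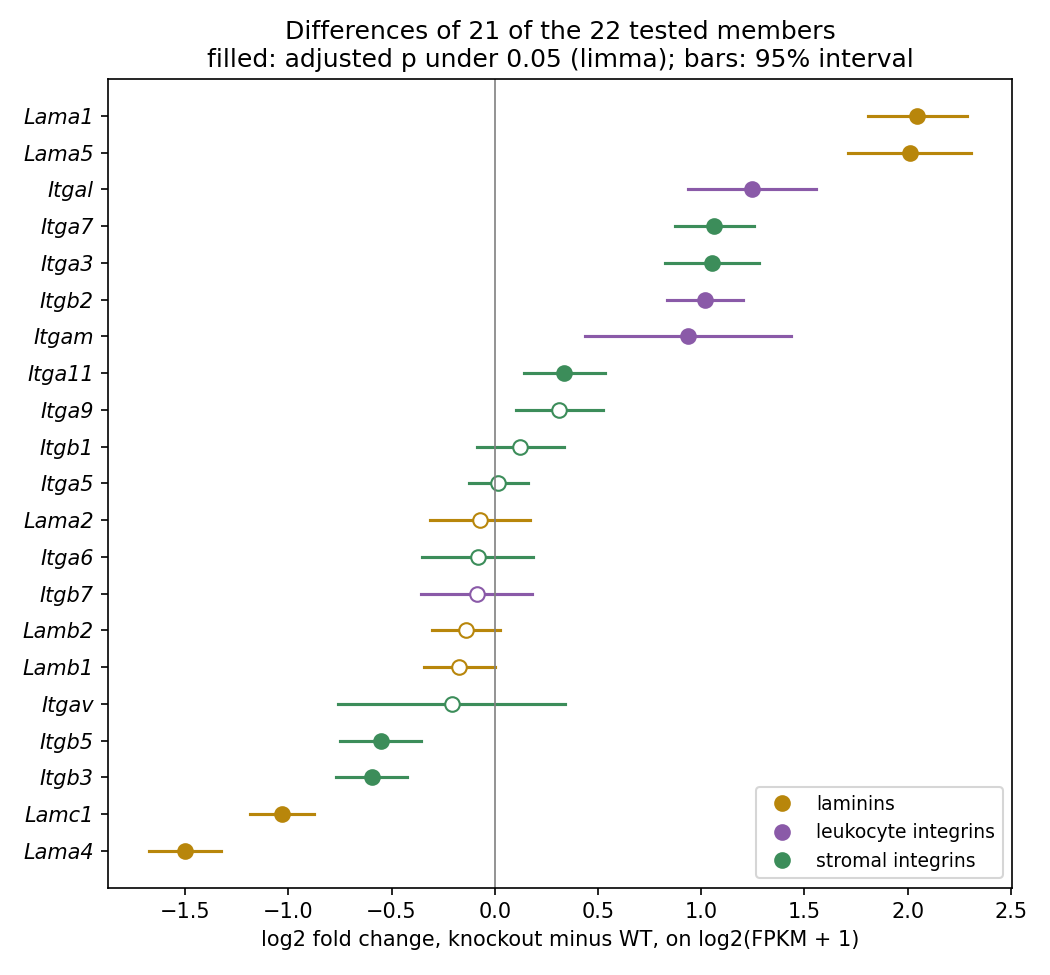
Log2 fold change of 21 of the 22 tested members, the knockout mean of log2(FPKM + 1) less the WT mean, with its 95% interval from limma, ordered from highest to lowest. Filled points passed the adjusted threshold, and colours mark leukocyte integrins, stromal integrins and laminins. Lama1 and Lama5 lie near 2, the β2 family and Itga3 and Itga7 near 1, and Lamc1 and Lama4 at -1.03 and -1.50.

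The partners of laminin in the basement membrane were mostly lower. Of 21 listed genes 14 were tested, of which 11 fell and 1 rose (limma), with a median log2 fold change of -0.46. Smoc2, a calcium-binding matrix protein, stood at 12.5 FPKM in knockout and 46.4 FPKM in WT libraries (log2 fold change -1.82, limma adjusted p = 1.93e-05). Nid1, the nidogen that links laminin γ1 to type IV collagen, stood at 130 ± 10.6 FPKM in knockout and 293 ± 10.9 FPKM in WT libraries (-1.17, limma adjusted p = 0.000214). The other genes of the list with the largest calls were Fbln2 (164 FPKM in knockout and 328 FPKM in WT libraries) and Ntn4 (3.56 FPKM in knockout and 7.79 FPKM in WT libraries). The type IV collagen genes Col4a1, Col4a2 and Col4a5 fell as well, and Nid2, the related nidogen, was the member that rose (43.8 FPKM in knockout and 29.9 FPKM in WT libraries, log2 fold change 0.53, limma adjusted p = 0.00281). Dag1, the dystroglycan receptor of laminin, stood at 29.1 FPKM in knockout and 36.0 FPKM in WT libraries (-0.30, limma adjusted p = 0.0348). These 3 collagen genes, Nid2 and Dag1 were singled out after their values were seen.

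Among called genes, ligands of integrins were more often lower and intracellular adaptors more often higher, while 5 tested ligands and 14 tested adaptors were not called. Over all tested genes, 10.4% were called higher and 9.2% lower (limma). Of 26 listed ligands 17 were tested, of which 4 rose and 8 fell (limma), with a median log2 fold change of -0.23. Jam2, counted among those that fell, passed the filter only through the WT libraries (0.75 FPKM in knockout and 1.20 FPKM in WT libraries). Fbn1 (fibrillin-1) stood at 48.7 FPKM in knockout and 177 FPKM in WT libraries (log2 fold change -1.85), Spp1 (osteopontin) at 775 FPKM in knockout and 1780 FPKM in WT libraries (-1.21), and Tnc (tenascin-C) at 136 FPKM in knockout and 253 FPKM in WT libraries (-0.89). Fn1 (fibronectin) was higher, at 1030 ± 155 FPKM in knockout and 630 ± 47 FPKM in WT libraries (0.70, limma adjusted p = 0.0132). Vcam1, the ligand of α4β1, stood at 29.5 FPKM in knockout and 40.8 FPKM in WT libraries, and Icam1, the ligand of LFA-1 and Mac-1, at 3.52 FPKM in knockout and 2.56 FPKM in WT libraries (limma adjusted p = 0.00388 and 0.0271, both chosen after their values were seen).

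Of 31 listed adhesion adaptors 28 were tested, of which 12 rose and 2 fell (limma), with a median log2 fold change of 0.24. Actn1, Ptk2, Src, Tln1 and Bcar1, counted among those that rose, lay close to the threshold (limma adjusted p = 0.043 to 0.0493). In edgeR 8 rose and 2 fell among 30 tested. Tns1 (tensin-1) fell, at 5.21 FPKM in knockout and 12.3 FPKM in WT libraries (log2 fold change -1.09, limma adjusted p = 0.00129). Lims2, the PINCH-2 adaptor, rose, at 5.52 FPKM in knockout and 2.51 FPKM in WT libraries (0.89, limma adjusted p = 0.000414). Fermt3, the kindlin of blood cells that activates β2 integrins, rose to 5.68 FPKM in knockout libraries, against 2.66 FPKM in WT libraries (0.87, limma adjusted p = 0.000658). Tns3 rose to 28.4 FPKM in knockout libraries, against 20.4 FPKM in WT libraries. Fermt2, the kindlin of stromal cells, stood at 48.8 FPKM in knockout and 38.8 FPKM in WT libraries (0.32, limma adjusted p = 0.0167; chosen after its values were seen).

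**Figure D4:**
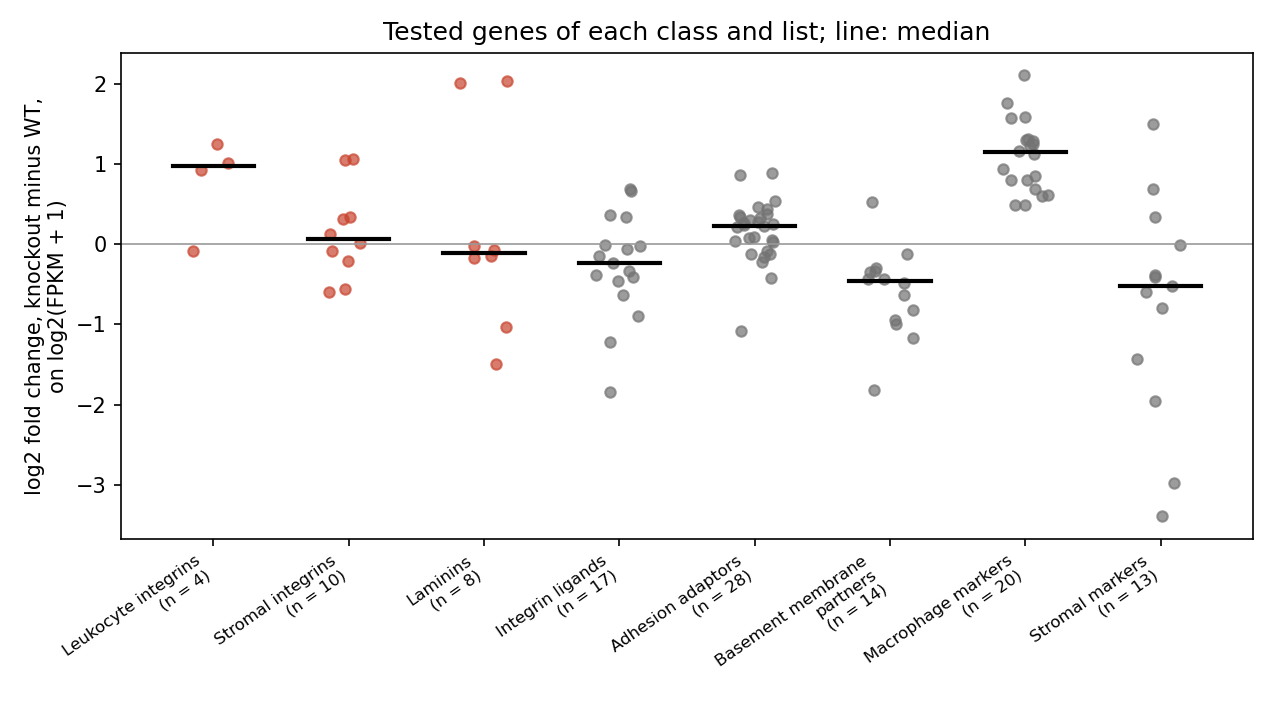
Log2 fold change (the knockout mean of log2(FPKM + 1) less the WT mean) of the tested genes of each class of members (red) and of each comparison list (grey), 1 point per gene with a line at the median. The leukocyte integrins have a median of 0.98 beside 1.15 for macrophage markers, and the laminins spread from -1.50 to 2.05 around a median of -0.11.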

How the data were processed

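Bone marrow stromal cells under LPS, in 3 Nlrp3 knockout and 3 WT libraries, were profiled by RNA sequencing with oligo(dT) selection and dUTP marking of the second strand, per the labels' protocols. The submitters' processing notes name StringTie 1.3.4d, HISAT2 2.0.4, cutadapt 1.9 and GRCm38; how reads were counted, and whether by strand, is not stated. The authors deposited FPKM values and estimated counts per gene. The counts are whole numbers but proportional to FPKM: over 5837 genes with at least 5 FPKM and 300 counts per library, 100% of ratios differed by at most 1% from one factor for each library. Of counts up to 16, 44.4% were multiples of 4, so that 1 fragment was read as 4 counts, an inference from the values. Floors cover counting error only.

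The main test was limma 3.58.1 (R 4.3.3), run on log2(FPKM + 1) for genes with FPKM of at least 1 in 3 of 6 libraries (eBayes with trend, two-sided, group as the only term). The estimated counts were tested, rounded, with edgeR 4.0.16 (quasi-likelihood, TMM) and DESeq2 1.42.0 as alternatives; other alternatives were a pseudocount of 0.1, other filters, quantile normalization, a replicate block and leaving out each library. The limma script was tested on simulated data. Intervals are 95%. Titles give the libraries of each genotype as day 1, 2 and 3, and these numbers named the replicates; another label gives day 1 for all 6, so that it is unclear whether a number marks a day shared by both genotypes. The main model has no day term; the replicate block adds one.

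Members, classes and lists were chosen with earlier results of these data known, so that counts over them are descriptions. Members were given with values or ranges, except 1 tested member that is not reported here; from each further list up to 4 called genes with the largest log2 fold change were named, and others, single marker genes included, were chosen after their values were seen. Promoter windows came from RefSeq GRCm38.p6, which held 24 of the 38 members; in 22 of these the bases after the start lie in a GENCODE M21 transcript of that gene. All 38 gene IDs were found in GENCODE M21.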

Additional observations from a re-analysis of the deposited data

How the results depend on the processing

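With 1 library left out, the number of members called ranged from 5 to 8 higher and was 4 lower in each such fit, and the numbers over all genes ranged from 705 to 1464 higher and from 583 to 1281 lower. The 5 was reached without knockout replicate 2, where Itga11 and Itgam missed the threshold and Lama1 no longer passed the filter; the 705 was reached without knockout replicate 1, and the lower count was 583, 675 and 640 without WT replicate 1, 2 and 3. The medians then ranged from 0.88 to 1.08 for leukocyte integrins, from 0.05 to 0.11 for stromal integrins and from -0.17 to -0.09 for laminins. Without a filter on low values the leukocyte median was 0.04 and the laminin median -0.02, since unexpressed members enter. The stromal median was 0.02 with at least 1 FPKM in all 6 libraries and 0.10 under quantile normalization. It was 0.32 in edgeR on the counts and also 0.32 on the counts divided by 4 (added after the data were seen), and 0.35 in DESeq2. The edgeR median on the counts was taken over 17 stromal integrins, against 10 in limma, so that it is not a median over the same genes. DESeq2 called 1817 genes higher and 1680 lower over all genes, against 1264 and 1117 in limma. Of the members it called 11 higher and 6 lower, counts given here without the share over all genes it tested. edgeR on the counts called 10 members higher and 6 lower among 34 tested, the added ones being Itga9, Lamb3, Itga8 and Itga2b. On the counts divided by 4 the same members were called, and Itgax and Lamc3 were no longer tested. With at least 1 FPKM in all 6 libraries Itga9 passed (adjusted p = 0.0411), as it did in DESeq2 (0.0179), and Lama1 and Itga7 were not tested. Besides Itga11 and Itgam, and apart from fits that did not test Lama1 or Itga7, no called member lost its call under the alternatives run. Values near 0 changed sign for Itga5 (0.00 in edgeR, -0.001 on the counts divided by 4 and 0.00 without WT replicate 3, up to 0.033 with another library left out) and Itgb7 (0.016 without WT replicate 3, down to -0.143).

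Titles tie each number to a day in both genotypes, but another label gives a single day for all libraries. In their deviations from the group means, knockout and WT libraries of the same number correlated at 0.02, 0.168 and 0.096, and those of different numbers at -0.171 to 0.081. The pairing is thus unclear. With the day number as a replicate block, 1106 genes were higher and 980 lower, 8 members were higher and 4 lower, the medians were 0.98, 0.07 and -0.11, and no member's call changed. Members under the limma filter had at most 672 estimated counts in a library (Itga1), and many had far fewer. Among them edgeR called Itga8, Itga2b and Lamb3 (adjusted p = 0.0135, 0.0299 and 0.0238), and DESeq2 also called Itgb6 (0.00149). No other member under the filter was called by either, and a difference there may have been too small to detect at this depth.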

Other observations

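Matrix receptors that are not integrins were looked at in the same libraries, in a list drawn up after the members' values had been seen and given no test as a list. Of 18 listed, 17 were tested, of which 7 were higher, 1 was lower and 9 did not pass (limma). Among the syndecans, heparan sulfate proteoglycans that bind laminin and fibronectin next to integrins, Sdc4 stood at 98.2 ± 7.5 FPKM in knockout and 59.2 ± 4.7 FPKM in WT libraries (SD, n = 3 each; log2 fold change 0.72, limma adjusted p = 0.00196). Sdc1 stood at 74.5 FPKM in knockout and 52.2 FPKM in WT libraries and Sdc2 at 42.8 FPKM in knockout and 30.5 FPKM in WT libraries (limma adjusted p = 0.00431 and 0.00452), whereas Sdc3 stood at 91.6 FPKM in knockout and 91.7 FPKM in WT libraries. The collagen receptors Ddr1 and Ddr2 did not pass, at 18.1 and 26.9 FPKM in knockout and 16.9 and 27.7 FPKM in WT libraries. Mrc2, the collagen uptake receptor of fibroblasts, was lower, at 49.4 FPKM in knockout and 79.9 FPKM in WT libraries (log2 fold change -0.68, limma adjusted p = 0.00111). Stab1, a scavenger receptor of macrophages and sinusoidal cells, was higher, at 6.77 FPKM in knockout and 2.96 FPKM in WT libraries (0.97, limma adjusted p = 0.000659). The other higher genes were Cd36 (log2 fold change 0.92), Gpc1 (0.50) and Gpc6 (0.41).

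Tetraspanins, membrane proteins that associate with laminin-binding integrins, were listed in the same way. Of 20 listed, 15 were tested, of which 4 rose and 2 fell (limma). Tspan2, counted among those that rose, passed the filter only through the knockout libraries (1.47 FPKM in knockout and 0.483 FPKM in WT libraries). Cd53, a tetraspanin of leukocytes that is also in the macrophage list, stood at 18.5 FPKM in knockout and 9.80 FPKM in WT libraries, and Cd151, the partner of α3β1, which was listed with the adaptors, at 38.2 FPKM in knockout and 37.0 FPKM in WT libraries (log2 fold change 0.04, limma adjusted p = 0.852). Within the basement membrane list, Ntn1 (netrin-1) had 18.78 FPKM in knockout replicate 1 and 2.98 and 3.11 FPKM in knockout replicates 2 and 3, against 6.25, 6.59 and 6.60 FPKM in WT libraries.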
